A study of Mus musculus with 14 samples.

Results

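The genes described here are 30 enzymes and binding proteins of histone acetylation, read in 14 libraries of bulk mouse tumour RNA. They were taken by name from the 51789 genes of the count table and fall into 4 classes: 10 acetyltransferases, 11 zinc-dependent histone deacetylases (HDACs), 7 sirtuins and 2 BET readers. All 30 passed the filter on low counts, which left 17294 genes to be tested. The tumours grew in 2 mouse strains, labelled NGS and C57BI/6 (written here as C57BI6), given either vehicle or ACSS2i, an inhibitor of the enzyme ACSS2. There were 3 NGS vehicle, 3 NGS ACSS2i, 4 C57BI6 vehicle and 4 C57BI6 ACSS2i libraries, and the series' title places the work in triple negative breast cancer. The sources used here do not give what the strain name NGS stands for, the tumour cells, the age of the mice, or how much inhibitor was given and for how long. The design line names Bmal1 status, which no label ties to a library, and no genotype was assumed.

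Histone acetyltransferases move an acetyl group from acetyl-CoA to lysines of histone tails, which loosens chromatin, and HDACs and sirtuins take it off again. HDACs use a zinc ion, while sirtuins consume NAD. BET proteins bind acetylated lysines through paired bromodomains and bring in the transcription machinery. ACSS2 joins acetate to coenzyme A, also inside the nucleus, and so supplies the substrate of the acetyltransferases. The comparisons asked whether RNA of these enzymes and readers differed between inhibitor and vehicle in each strain, and between the strains under each treatment.

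Library totals were 2.85 to 4.7 M counts for NGS and 17.6 to 20.3 M for C57BI6, so strain and depth cannot be told apart. Levels are given as CPM, counts scaled to 1 M of the library total after TMM adjustment. They are not scaled by gene length and are not compared between genes. Each library reads messenger RNA from its 3′ end. The labels do not say that libraries came from separate animals, so the p-values measure the spread between these samples, which may be technical. In bulk tumour RNA, fewer cells of a type and less RNA per cell cannot be told apart. All 8 epithelial tumour markers had counts in at least 1 library, but only 5 of them passed the filter on low counts. The 8 summed to 212 to 457 CPM per library. T and NK cell markers summed to 0.456 to 2.14 CPM in the NGS libraries, with 5 of 10 (Cd3e, Cd3g, Ncr1, Klrb1c and Gzma) at 0 in all of them. They summed to 8.9 to 17.2 CPM in C57BI6 vehicle and to 34 to 58.9 CPM in C57BI6 ACSS2i. B cell markers summed to 0.912 to 2.14 CPM in the NGS libraries, with Cd79a and Jchain at 0, to 3.64 to 131.6 CPM in C57BI6 vehicle and to 166 to 671 CPM in C57BI6 ACSS2i. Muscle markers were highest in NGS vehicle 2 and 3 and C57BI6 ACSS2i 3 (6839, 2981 and 3087 CPM), and keratinocyte markers in NGS vehicle 1 and NGS ACSS2i 1 (1160 and 497 CPM). The part of these cell types in the results on acetylation genes was not tested, beyond the values given without those libraries.

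In the C57BI6 tumours, none of the 30 genes passed the test for a change with the inhibitor. The edgeR quasi-likelihood test with Benjamini-Hochberg adjustment over all genes called 0 of 30 at an adjusted p under 0.05, where 0.312% of all genes tested were called, 0.26% higher and 0.052% lower. At an unadjusted p under 0.05 there were 2 of 30, Crebbp and Hdac2, against 7.96% of all genes, and the DESeq2 test and limma voom each called 0. The 95% interval of the change lay within 2-fold in either direction for 28 of the 30, the exceptions being Hdac11 and Sirt4, and within 1.5-fold for 26. The fitted changes were small and leaned down: 21 of 30 were negative (70%, against 52.3% of all genes), with a median log2 fold change of -0.07 against -0.01 over all genes. With scaling by library totals, 16 of 30 were negative with a median of -0.01, and over all genes 40.2% were negative with a median of 0.05. No test of the lean was made.

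Among the acetyltransferases in C57BI6 tumours, the smallest p belonged to Crebbp, a transcriptional coactivator that acetylates histones at enhancers. It was at 234, 220, 209 and 231 CPM in the vehicle libraries and at 187, 187, 204 and 188 CPM in the ACSS2i libraries. The groups did not overlap, and all ACSS2i libraries lay below all vehicle libraries. The log2 fold change was -0.22 ± 0.08 (SE), with an adjusted p of 0.384 by edgeR. Its paralogue Ep300 was at 95.2 to 118 CPM in vehicle and 94.6 to 103 CPM in ACSS2i, which overlap. The 10 acetyltransferases spanned log2 fold changes of -0.22 to 0.14, 8 of them negative, and only Crebbp and Kat8 had groups that did not overlap.

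Hdac2, a class I deacetylase of the SIN3, NuRD and CoREST corepressor complexes, had the smallest p of the HDACs in C57BI6 tumours. Its level was 74, 85, 77 and 72 CPM in vehicle and 61.9, 71, 64.7 and 62.1 CPM in ACSS2i. The ACSS2i libraries were all lower, and the gap between the groups was narrow. The log2 fold change was -0.25 ± 0.09 (SE), adjusted p = 0.407. Its close paralogue Hdac1, which sits in the same complexes, had a fitted change of 0.01 ± 0.10. Across the 11 HDACs the changes ran from -0.44 (Hdac10) to 0.06 (Hdac6), with 9 negative.

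Sirt2, the mainly cytoplasmic sirtuin, had the smallest p of its class in C57BI6 tumours. It was at 51.3, 50.2, 53.7 and 57.2 CPM in vehicle and at 48.3, 45, 42.2 and 48.9 CPM in ACSS2i. The groups did not overlap, but the log2 fold change of -0.20 ± 0.13 (SE) had an adjusted p of 0.828. Sirt3, the main mitochondrial deacetylase, did not overlap either, in the other direction, with 4.86 to 6.75 CPM in vehicle and 6.99 to 8.91 CPM in ACSS2i. Its 3′ end overlaps Ric8a on the other strand, which was at 14 CPM in C57BI6 vehicle and 16.3 CPM in C57BI6 ACSS2i, and the sources used here do not say whether the authors' counting used strand. In all, groups did not overlap for 6 of 30 genes (Crebbp, Kat8, Hdac2, Hdac10, Sirt2 and Sirt3), where 9.33% of all genes had that pattern. The BET readers had changes near 0: Brd2 -0.0017 ± 0.11 and Brd3 -0.01 ± 0.10, each with an adjusted p of 1. Brd3 was at 112, 124, 133 and 133 CPM in vehicle and at 142, 116, 122 and 118 CPM in ACSS2i, and the groups overlapped almost fully.

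**Figure D1:**
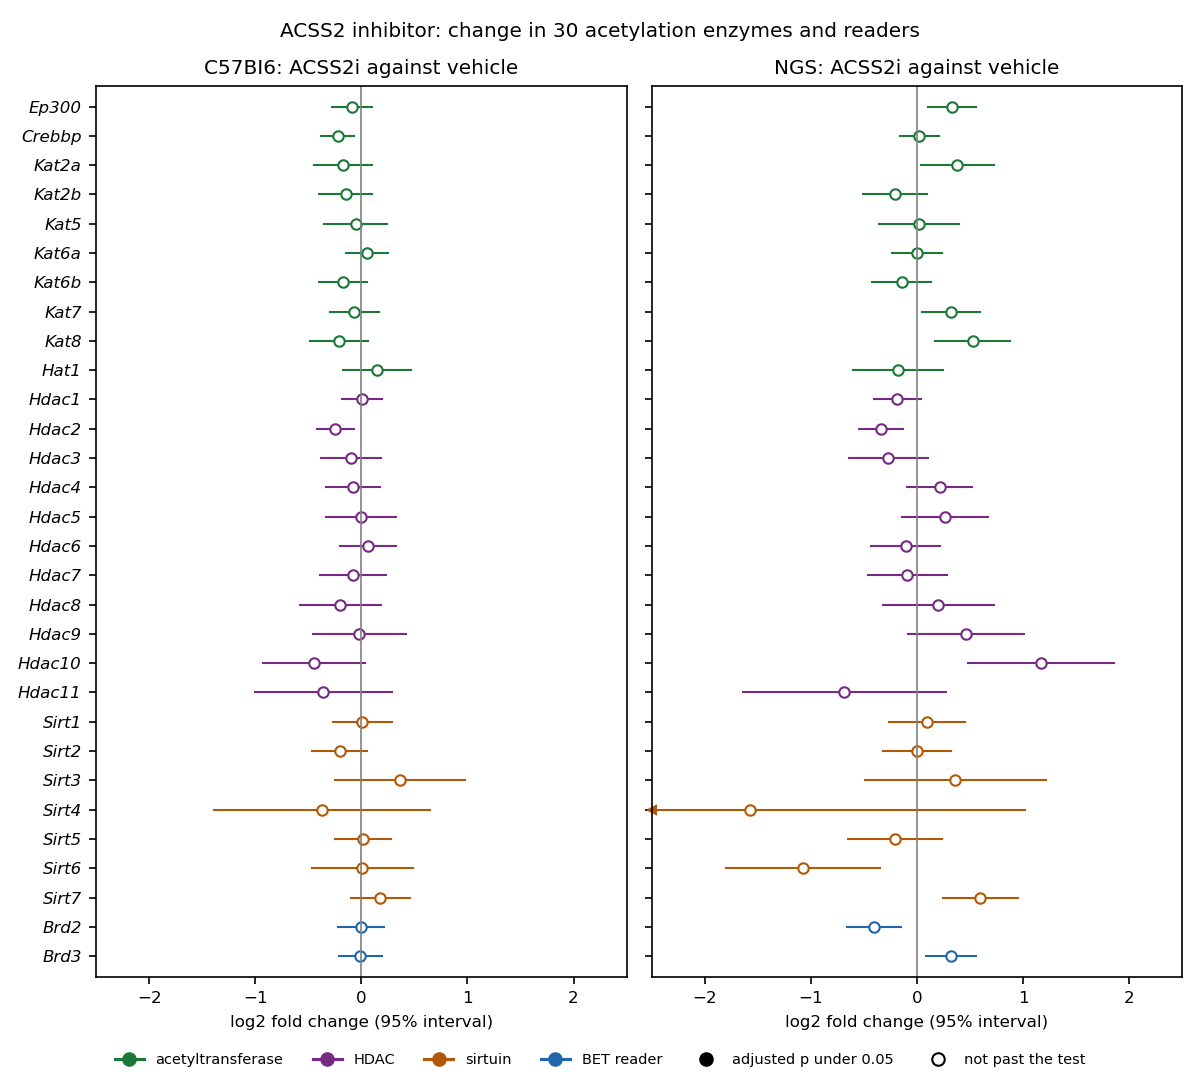
Log2 fold change of ACSS2i against vehicle (horizontal axis) for each of the 30 genes, in the C57BI6 tumours (left) and the NGS tumours (right), with 95% intervals as lines, colour for the class, and open circles for genes not past the test. All circles are open, and the NGS intervals are wider than the C57BI6 ones, with the lower end for Sirt4 beyond the axis.

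In the NGS tumours none of the 30 passed the edgeR test either, though several were near the threshold. The count was 0 of 30, where 2.69% of all genes were called, 1.32% higher and 1.38% lower. At an unadjusted p under 0.05 there were 10 of 30, against 22.1% of all genes, and groups did not overlap for 6 of 30, against 18.8%. The members' median log2 fold change was 0.01, with 15 positive and 15 negative. The fitted changes ran from -1.58 (Sirt4, 4 counts in vehicle and 1 in ACSS2i) to 1.17 (Hdac10). In the deeper C57BI6 libraries they ran from -0.44 to 0.36. Whether the effects differ between the strains is tested by the interaction below. The approximate 95% interval of the NGS change lay within 2-fold for 24 of 30 and within 1.5-fold for 14. For Hdac9, Hdac10, Hdac11, Sirt3, Sirt4 and Sirt6 it reached past 2-fold, so changes of that size were not excluded at this depth and spread. The DESeq2 test called 5 of 30, where it called 1574 of all 17294 genes. The 5 were Hdac10, Sirt7 and Ep300, higher, and Hdac2 and Brd2, lower, and limma voom called 0. Without NGS ACSS2i 1, the library richest in keratinocyte RNA of its group, edgeR called 4 (Hdac10 higher, and Hdac2, Brd2 and Sirt6 lower). Without NGS ACSS2i 3 it called Sirt7. With each library left out in turn, edgeR called 118 to 1743 genes over all genes.

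Kat8, the MYST-family acetyltransferase of the MSL and NSL complexes, had the smallest p of the acetyltransferases in NGS tumours. It was at 10.7, 11.7 and 7.75 CPM in vehicle and at 14.2, 16.8 and 12.7 CPM in ACSS2i. All ACSS2i libraries were higher, and the log2 fold change was 0.53 ± 0.18 (SE), adjusted p = 0.116. Its 3′ end overlaps Prss8 on the other strand, a gene with 6 counts in NGS vehicle and 1 in NGS ACSS2i. Ep300 was at 107, 90 and 80.2 CPM in vehicle and at 122, 107 and 119 CPM in ACSS2i, a log2 fold change of 0.33 ± 0.12 (adjusted p = 0.12). The groups did not overlap, but NGS vehicle 1 and NGS ACSS2i 2 were both at 107 CPM after rounding. The other 8 ranged from -0.20 (Kat2b) to 0.38 (Kat2a).

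Hdac10, a class IIb deacetylase known for acting on polyamines, had the largest fitted change of the HDACs in NGS tumours. Its level was 3.24, 2.02 and 3.88 CPM in vehicle and 4.28, 11.2 and 5.52 CPM in ACSS2i. The ACSS2i libraries were all higher, and 1 of them, NGS ACSS2i 2, the shallowest library, lay far above the other two. The log2 fold change was 1.17 ± 0.35 (SE), adjusted p = 0.0791, from 42 counts in vehicle and 74 in ACSS2i, a scaled ratio of 2.18 (exact 95% interval 1.48 to 3.27, counting error only). With each library left out in turn the change ranged from 0.71 to 1.42. Hdac2 was at 92.7, 90 and 88.4 CPM in vehicle and at 77, 62.6 and 74.3 CPM in ACSS2i, -0.34 ± 0.11 (adjusted p = 0.0904), so its groups did not overlap in either strain and lay in the same order.

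Among the sirtuins in NGS tumours, Sirt7, the sirtuin of the nucleolus, had the smallest p. It was at 24.5, 26.7 and 22.3 CPM in vehicle and at 37.4, 48.4 and 26.2 CPM in ACSS2i. The lowest ACSS2i library lay below the highest vehicle library, and the log2 fold change was 0.60 ± 0.18 (SE), adjusted p = 0.0782. Sirt6, a chromatin-bound deacetylase, was at 3.85, 2.47 and 3.88 CPM in vehicle and at 2.41, 0.989 and 1.38 CPM in ACSS2i. The groups did not overlap, though only by a small gap. The change was -1.07 ± 0.37 (adjusted p = 0.116), resting on 47 counts in vehicle and 18 in ACSS2i.

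The BET readers in NGS tumours had fitted changes in opposite directions. Brd2, which recruits transcription factors to acetylated chromatin, was at 405, 318 and 384 CPM in vehicle and at 312, 249 and 276 CPM in ACSS2i. All ACSS2i libraries were lower, and the log2 fold change was -0.40 ± 0.13 (SE), adjusted p = 0.0944. Brd3 was at 98.3, 94.7 and 118 CPM in vehicle and at 115, 136 and 138 CPM in ACSS2i, with an overlap of 1 library each and a change of 0.32 ± 0.12 (adjusted p = 0.144).

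The difference between the inhibitor effects of the 2 strains was tested directly as an interaction. It called 0 of 30 by edgeR, where 0.0173% of all genes were called. There were 6 of 30 at an unadjusted p under 0.05 (Ep300, Kat2a, Kat8, Hdac10, Sirt6 and Brd2), against 13.8% of all genes, and DESeq2 called Hdac10 alone while limma voom called 0. Kat8 and Hdac10 stood out in the libraries: groups did not overlap in either strain, and the order was opposite. In C57BI6 tumours Kat8 was at 10.2, 9.96, 10.1 and 11.9 CPM in vehicle and at 8.48, 9.13, 9.63 and 9.17 CPM in ACSS2i. Hdac10 was at 6.26, 7.61, 7.54 and 8.57 CPM in C57BI6 vehicle and at 5.77, 5.91, 5.9 and 4.46 CPM in C57BI6 ACSS2i. The fitted changes in C57BI6 tumours were -0.21 ± 0.14 for Kat8 (adjusted p = 0.84 by edgeR) and -0.44 ± 0.25 for Hdac10 (adjusted p = 0.748). In the NGS tumours both were positive, and neither gene passed the edgeR test in either strain. The difference of effects, C57BI6 minus NGS, was -0.73 ± 0.23 for Kat8 (adjusted p = 0.228) and -1.62 ± 0.43 for Hdac10 (adjusted p = 0.205). Opposite, non-overlapping groups were seen for 2 of the 30 genes (6.67%), against 0.434% of all genes tested. How often the pattern occurs was not tested.

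Between the strains, some of the genes differed clearly, but as a set they did so no more often than genes at large. In vehicle, 7 of 30 passed the test (23.3%), where 32.8% of all genes were called. There, 4 were higher in C57BI6 and 3 lower, against 18.8% and 14% of all genes. In ACSS2i, 12 of 30 passed (40%), where 40.3% were called, with 7 higher and 5 lower against 23.1% and 17.2%. At an unadjusted p under 0.05 there were 12 and 14 of 30, against 43.3% and 49% of all genes. Groups did not overlap for 9 of 30 in vehicle, against 40.6% of all genes, and for 14 of 30 in ACSS2i, against 44.6%. Both strain comparisons differ in depth as well. With the C57BI6 counts thinned to the median NGS total, 8 and 12 of the 30 passed. The strains were compared in separate libraries under each treatment, and 5 genes passed in both with the same sign: Hdac1, Hdac7 and Sirt5 higher in C57BI6, and Hdac6 and Hdac9 lower. These are 71.4% of the vehicle calls and 41.7% of the ACSS2i calls, against 72.4% and 59% over all genes.

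**Figure D2:**
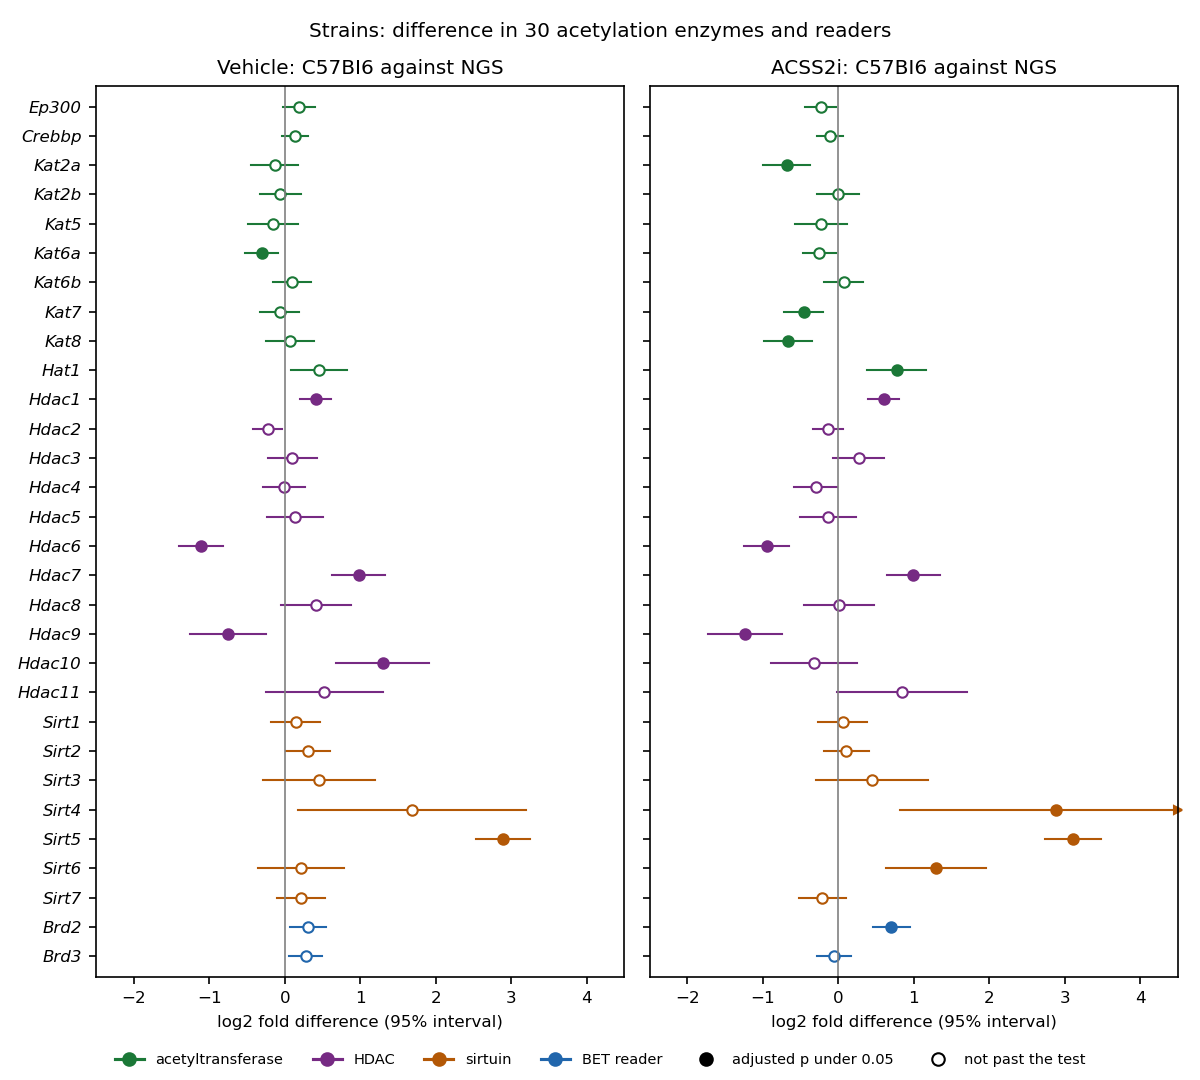
Log2 fold difference of C57BI6 against NGS (horizontal axis) for each of the 30 genes, in vehicle (left) and ACSS2i (right), with 95% intervals as lines and filled circles for genes past the test. There are 7 filled circles on the left and 12 on the right; Hdac1, Hdac6, Hdac7, Hdac9 and Sirt5 are filled in both, on the same side of 0.

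Among the acetyltransferases, 1 of 10 differed between the strains in vehicle (10%, against 32.8% of all genes) and 4 of 10 in ACSS2i (40%, against 40.3%). None of the 10 passed in both. The change of the strain difference between treatments is the interaction given above, which called none of the 30. Kat6a, a MYST-family enzyme needed in blood stem cells, was lower in C57BI6 vehicle, at 78.5, 74.8, 61.3 and 73 CPM against 87.2, 93.5 and 86.4 CPM in NGS vehicle. The groups did not overlap, and the log2 fold difference was -0.31 ± 0.11 (SE), adjusted p = 0.0442. That call is marginal: it was lost in 10 of the 14 fits that left out 1 library, with adjusted p-values up to 0.147, and held without NGS ACSS2i 1 or 2, C57BI6 vehicle 1 or C57BI6 ACSS2i 1. It was also lost without the filter on low counts (adjusted p = 0.133) and without the libraries rich in muscle (adjusted p = 0.379) or keratinocyte RNA (adjusted p = 0.0792). In ACSS2i its difference was -0.25 ± 0.11, just past the other side of the threshold (adjusted p = 0.0838).

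In the ACSS2i libraries Kat2a, Kat7 and Kat8 were lower in C57BI6 and Hat1 was higher. Kat2a, the acetyltransferase of the SAGA and ATAC coactivator complexes, was at 15.9, 17.3, 20.6 and 14.8 CPM in C57BI6 and at 29.4, 21.1 and 31.8 CPM in NGS. The highest C57BI6 library and the lowest NGS library were close, and the difference was -0.69 ± 0.16 (adjusted p = 0.00335). Kat7, which acetylates histones at replication origins and gene starts, was at 59.5, 56.5, 54.3 and 60 CPM in C57BI6 and at 65.2, 94.9 and 78 CPM in NGS (-0.46 ± 0.13, adjusted p = 0.011). All C57BI6 libraries were lower, but the call was lost without NGS ACSS2i 2, the highest library (-0.31, adjusted p = 0.062). For Kat8, whose levels are given above, the difference was -0.67 ± 0.16 (adjusted p = 0.00442), and in vehicle it was 0.06 ± 0.16. Hat1, which acetylates newly made histones before they enter chromatin, was at 26.3, 28.4, 27.1 and 23.9 CPM in C57BI6 and at 18.7, 9.23 and 17.9 CPM in NGS (0.77 ± 0.20, adjusted p = 0.00634). In vehicle its groups did not overlap either, with 20.2 to 27.8 CPM against 14.8 to 19.2 CPM, but the adjusted p was 0.084. Crebbp, Ep300, Kat2b, Kat5 and Kat6b passed in neither comparison.

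Of the 11 HDACs, 5 passed between the strains in vehicle (45.5%, against 32.8% of all genes) and 4 in ACSS2i (36.4%, against 40.3%). Hdac7, a class IIa deacetylase that shuttles between nucleus and cytoplasm and is known from endothelium and thymocytes, was higher in C57BI6, 1.97-fold in vehicle and 1.99-fold in ACSS2i. It was at 187, 166, 172 and 213 CPM in C57BI6 vehicle and at 76.3, 72.5 and 133 CPM in NGS vehicle. In ACSS2i it was at 180, 152, 185 and 182 CPM against 87.5, 81 and 95.3 CPM. The strains did not overlap under either treatment, and NGS vehicle 3 was the highest NGS library. The log2 fold difference was 0.98 ± 0.18 (SE, adjusted p = 0.000744) in vehicle and 0.99 ± 0.18 (adjusted p = 0.000571) in ACSS2i. The 3′ end of Hdac7 (mm10, chr15:97792664-97844502, minus strand) overlaps Slc48a1 on the other strand, which differed by 0.34 (adjusted p = 0.126) and -0.13 (adjusted p = 0.547). Here too, use of strand in the counting is not stated.

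Hdac6, the class IIb deacetylase of tubulin and other cytoplasmic proteins, was lower in C57BI6, 2.16-fold in vehicle and 1.93-fold in ACSS2i. It was at 9.61, 11.1, 10.7 and 11.7 CPM in C57BI6 vehicle and at 21, 21.5 and 27.4 CPM in NGS vehicle. In ACSS2i it was at 12.8, 11.5, 9.13 and 11.5 CPM against 19.8, 24.7 and 20.7 CPM. Every C57BI6 library lay well below every NGS library, and the differences were -1.11 ± 0.15 (adjusted p = 5.02e-05) and -0.95 ± 0.15 (adjusted p = 0.000219). Hdac9, another class IIa deacetylase, was also lower in C57BI6, at 3.97, 4.75, 4.06 and 5.92 CPM against 8.5, 8.3 and 6.84 CPM in vehicle (-0.75 ± 0.25, adjusted p = 0.0337). In ACSS2i it was at 3.84, 4.67, 5.9 and 4.01 CPM against 14.4, 6.92 and 11.1 CPM (-1.24 ± 0.25, adjusted p = 0.00137). The groups were apart in both, but the vehicle call was lost in 5 of the 14 fits without 1 library (NGS vehicle 1 or 2, or C57BI6 vehicle 1, 2 or 3, adjusted p up to 0.102), without the filter on low counts (adjusted p = 0.0649) and without the libraries rich in muscle (adjusted p = 0.154) or keratinocyte RNA (adjusted p = 0.0763).

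Hdac1 was higher in C57BI6 by a smaller margin. It was at 120, 121, 131 and 104 CPM in C57BI6 vehicle and at 94.5, 88 and 86.4 CPM in NGS vehicle. In ACSS2i it was at 124, 121, 123 and 110 CPM against 76.2, 70.2 and 90 CPM. The strains did not overlap, and the differences were 0.41 ± 0.11 (SE, adjusted p = 0.00831) and 0.60 ± 0.11 (adjusted p = 0.00051). The vehicle call was lost with scaling by library totals alone (0.26, adjusted p = 0.0673) and without the 3 libraries with most muscle RNA (0.36, adjusted p = 0.171), a fit that leaves 1 NGS vehicle library. Hdac10 differed in vehicle, 1.30 ± 0.31 (adjusted p = 0.00544), and not past the test in ACSS2i, -0.32 ± 0.29 (adjusted p = 0.404). Its vehicle call too was lost without the 3 muscle-rich libraries (1.24, adjusted p = 0.106). Hdac2 was the member nearest to the threshold among the HDACs that did not pass in vehicle: the groups did not overlap, and the difference was -0.23 ± 0.10 (adjusted p = 0.0847). Hdac3, Hdac4, Hdac5, Hdac8 and Hdac11 passed in neither comparison, with differences of -0.30 (Hdac4, ACSS2i) to 0.85 (Hdac11, ACSS2i).

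The promoters are shown for the 3 HDACs that passed the test between the strains in both comparisons and have a window in the RefSeq table of GRCm38.p6. A window holds 250 bases before and 50 after an annotated start, written 5′ to 3′ on the gene's strand, and where a gene has several the one with most CpG is given. Capitals mark matches, on either strand, to the GC box GGGCGG (or CCGCCC) and the CCAAT box CCAAT (or ATTGG), which do not contain each other.
Hdac6 (chrX:7947840-7948139, minus strand), Hdac7 (chr15:97831718-97832017, minus strand) and Hdac9 (chr12:34528840-34529139, minus strand):
Hdac6 promoter: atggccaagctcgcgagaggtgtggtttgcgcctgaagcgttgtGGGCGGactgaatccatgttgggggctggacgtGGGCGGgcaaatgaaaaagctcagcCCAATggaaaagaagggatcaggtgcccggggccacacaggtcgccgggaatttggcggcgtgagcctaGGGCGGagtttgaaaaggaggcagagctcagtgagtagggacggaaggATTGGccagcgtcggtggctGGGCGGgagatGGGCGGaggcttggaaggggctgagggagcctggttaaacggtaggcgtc
Hdac7 promoter: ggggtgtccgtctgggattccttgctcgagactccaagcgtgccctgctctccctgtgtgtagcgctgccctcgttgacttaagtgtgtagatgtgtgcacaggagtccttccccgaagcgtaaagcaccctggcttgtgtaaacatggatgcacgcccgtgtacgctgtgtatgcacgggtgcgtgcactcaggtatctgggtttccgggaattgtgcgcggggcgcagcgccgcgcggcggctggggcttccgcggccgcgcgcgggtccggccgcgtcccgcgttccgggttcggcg
Hdac9 promoter: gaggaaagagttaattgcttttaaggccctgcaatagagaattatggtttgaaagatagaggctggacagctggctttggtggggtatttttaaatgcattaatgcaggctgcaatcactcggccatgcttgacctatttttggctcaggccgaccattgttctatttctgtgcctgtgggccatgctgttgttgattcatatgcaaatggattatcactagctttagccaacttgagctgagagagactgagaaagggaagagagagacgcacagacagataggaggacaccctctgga

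The Hdac6 window held 5 GC boxes and 2 CCAAT boxes, and the windows shown for Hdac7 and Hdac9 held neither. They also differed in CpG, with 20 in Hdac6, 35 in Hdac7 and 3 in Hdac9. Windows were found for 26 of the 30 genes, 38 windows in all, and their median number of CpG was 20, against 7 over all 32851 windows of the table. The GC box was in 23 of the 38 (60.5%, against 35.7% of all windows) and the CCAAT box in 14 (36.8%, against 37.4%). The E-box CACGTG, a palindrome bound by bHLH factors, was in 4 (10.5%, against 7.15%), and TATAAA in 2 (5.26%, against 13.6%). A match describes letters only and shows no binding.

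**Figure D3:**
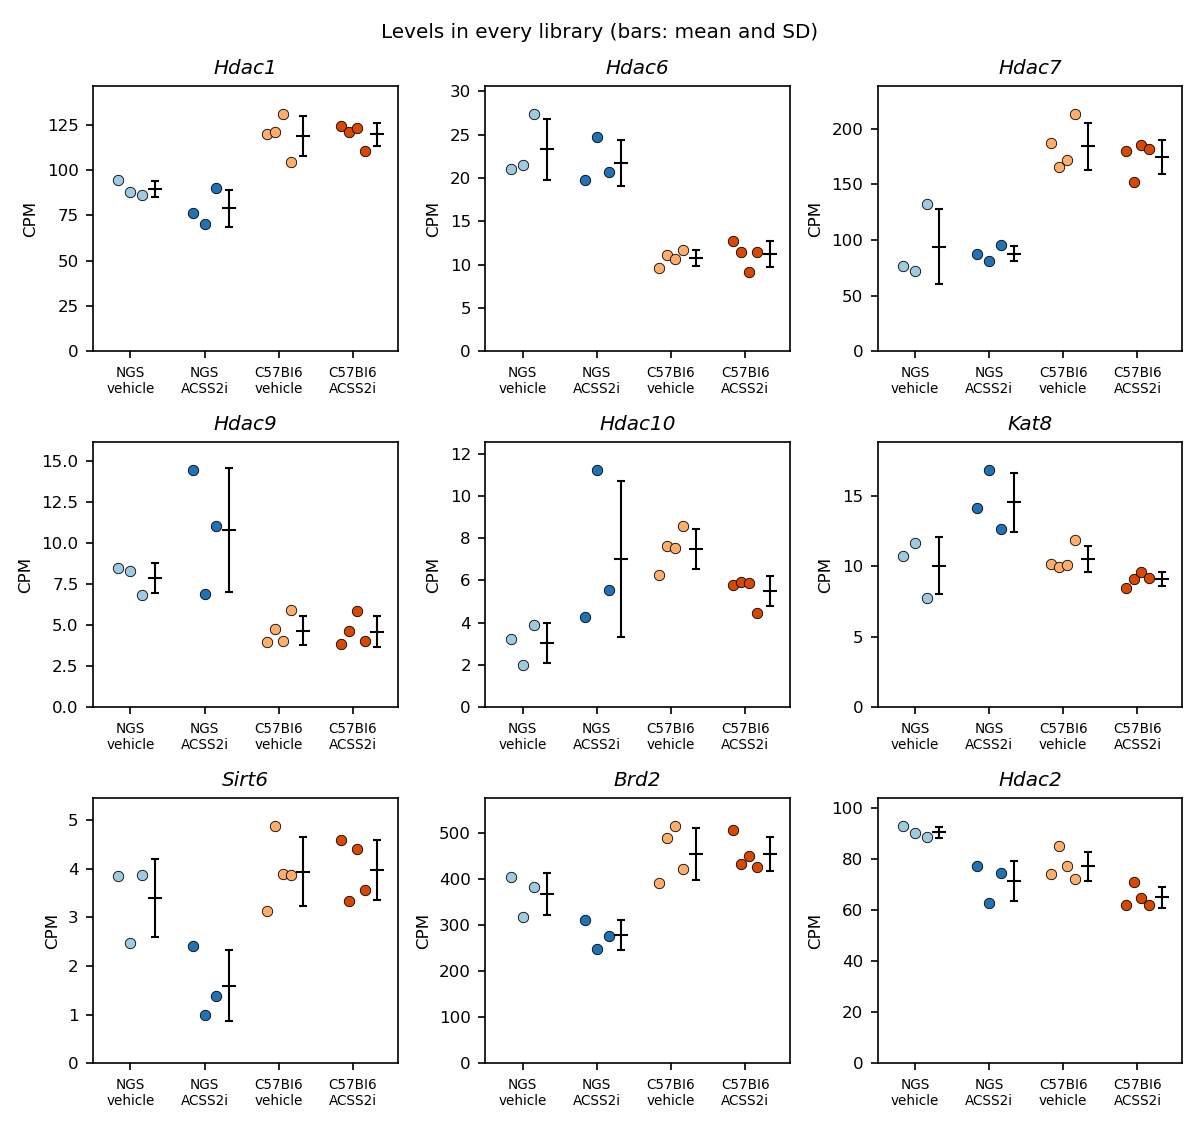
CPM of 9 genes in every library (points), by strain and treatment, with bars at the group mean and lines for the SD; each panel has its own axis from 0. Hdac1 and Hdac7 lie higher and Hdac6 and Hdac9 lower in the C57BI6 libraries under both treatments. Kat8 and Hdac10 lie higher with ACSS2i in NGS and lower with it in C57BI6, without passing the edgeR test in either strain.

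Of the 7 sirtuins, 1 passed the test between the strains in vehicle (14.3%, against 32.8% of all genes) and 3 in ACSS2i (42.9%, against 40.3%), all higher in C57BI6. Sirt6 was higher in C57BI6 ACSS2i, at 4.58, 3.33, 4.4 and 3.57 CPM against the NGS levels given before, 1.29 ± 0.34 (SE, adjusted p = 0.00708). In vehicle it was at 3.13, 4.87, 3.89 and 3.86 CPM in C57BI6, which overlapped NGS, with a difference of 0.21 ± 0.29. Sirt4, a mitochondrial sirtuin, was at 0.961, 0.496, 0.835 and 0.644 CPM in C57BI6 ACSS2i and at 0.267, 0 and 0 CPM in NGS ACSS2i, a single count in the whole NGS group against 55. The scaled ratio was 8.05, with an exact 95% interval of 1.39 to 324 that covers counting error only. The call (adjusted p = 0.0403) was lost in 7 of the 14 fits without 1 library (NGS ACSS2i 2 or 3, C57BI6 vehicle 2 or 3, or C57BI6 ACSS2i 1, 3 or 4, adjusted p up to 0.142), without the filter on low counts (adjusted p = 0.0617), without the muscle-rich libraries (adjusted p = 0.0559), and by DESeq2 (adjusted p = 0.0579) and limma voom (adjusted p = 0.0591). The fitted log2 difference of 2.89 ranged from 2.26 to 6.25 with each library left out, the top value being a fit against 0 counts in the remaining NGS ACSS2i libraries. In vehicle 67 counts stood against 4, and Sirt4 did not pass (adjusted p = 0.108). Sirt1, Sirt2, Sirt3 and Sirt7 passed in neither comparison.

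Sirt5, the mitochondrial sirtuin that removes succinyl and malonyl groups, was the sirtuin that passed between the strains under both treatments, and its reads are uncertain. It was at 46.2, 41.7, 41.1 and 53.8 CPM in C57BI6 vehicle and at 7.29, 6.06 and 5.01 CPM in NGS vehicle. In ACSS2i it was at 48.8, 44.5, 47.6 and 43.8 CPM against 5.08, 3.62 and 6.91 CPM. The strains were far apart, by 2.90 ± 0.18 (SE, adjusted p = 1.5e-08) and 3.12 ± 0.19 (adjusted p = 1.18e-08) on the log2 scale. However, 3 of the 7 coding transcripts of Sirt5 (mm10, chr13:43365496-43395203, plus strand) end in sequence that 10 other genes also carry. Within the last 500 bases the match ran over 152 to 500 bases at 95.7% to 100% identity. The 10 genes include Wdr31, the non-coding Snhg14 and predicted genes such as Gm9864 and Gm48368. Together they summed to 0.691 to 3.65 CPM in the NGS libraries and to 326 to 375 CPM in the C57BI6 libraries. All 6 that could be tested were higher in C57BI6 under both treatments, by 4.34 to 9.98 in vehicle. Reads from this sequence cannot be assigned to Sirt5 rather than to the other genes from the counts, so the strain difference is one of the shared sequence or of Sirt5. The inhibitor effect on Sirt5 counts was 0.01 ± 0.13 in C57BI6 and -0.21 ± 0.23 in NGS.

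**Figure D4:**
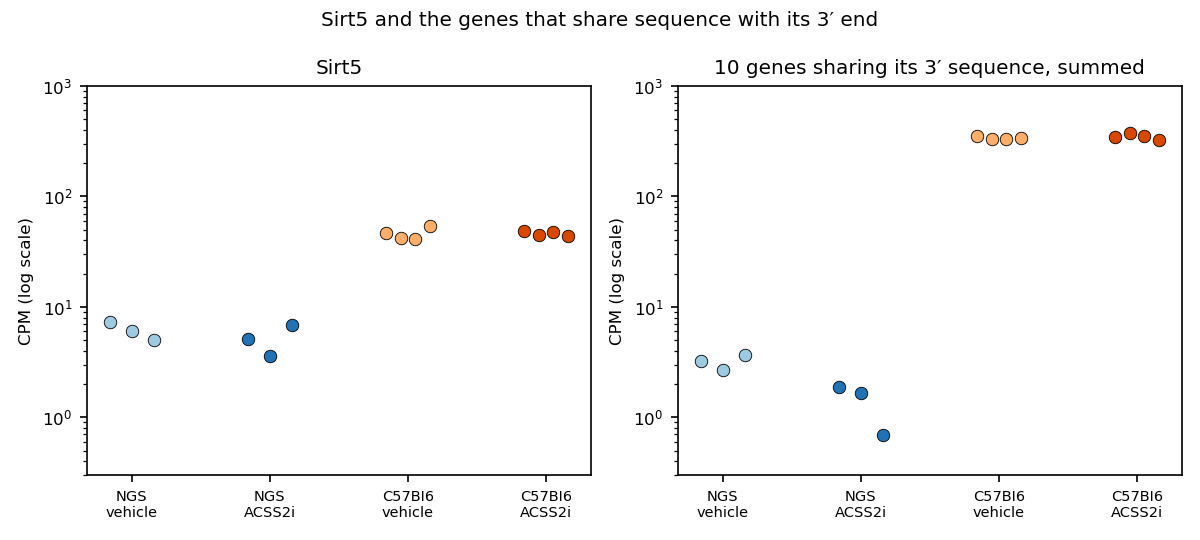
CPM on a log axis, per library, of Sirt5 and of the summed 10 genes that share sequence with its 3′ end, by strain and treatment. Sirt5 is at 3.62 to 7.29 CPM in NGS and 41.1 to 53.8 CPM in C57BI6, and the 10 genes are at 0.691 to 3.65 and 326 to 375 CPM.

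Of the BET readers, Brd2 was higher in C57BI6 under ACSS2i, at 508, 433, 450 and 427 CPM against 312, 249 and 276 CPM in NGS. The groups were well apart, and the difference was 0.70 ± 0.12 (SE, adjusted p = 0.000436). In vehicle Brd2 was at 392, 489, 515 and 423 CPM against 405, 318 and 384 CPM, with overlap, and just missed the threshold (0.30 ± 0.12, adjusted p = 0.0681). Brd3 was also near it in vehicle (0.27 ± 0.11, adjusted p = 0.0776) and not in ACSS2i (-0.06 ± 0.11).

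Cell type markers were counted beside all genes, of which 32.8% were called in vehicle and 40.3% in ACSS2i. Shares above these in both were those of T and NK cell (80% and 90%) and B cell markers (66.7% in each). Keratinocyte (85.7% and 57.1%) and fibroblast markers (71.4% in each) were also above in both. The other lists were not above the share of all genes in both comparisons, and no list was tested. In vehicle 8 of 10 T and NK cell markers and in ACSS2i 9 of 10 were higher in C57BI6, in the summed ranges given above, and 2 of 3 tested B cell markers in each. Keratinocyte markers were lower in C57BI6, 6 of 7 in vehicle and 4 of 7 in ACSS2i. Of 7 fibroblast markers 4 were lower and 1 higher in each comparison, of 7 adipocyte markers 1 and 3 were lower, and of 7 endothelial markers 1 and 3 were lower. Of 10 myeloid markers 2 were higher and 1 lower in vehicle, and 3 higher and 1 lower in ACSS2i. Of 8 cycling cell markers 1 was higher and 1 lower in vehicle, and 2 and 2 in ACSS2i. Of 5 tested epithelial tumour markers 1 was higher and 2 lower in vehicle and 1 higher in ACSS2i, and of 10 muscle markers 2 were lower in vehicle and none passed in ACSS2i. Without the 3 muscle-rich libraries the differences of Hdac6, Hdac7 and Sirt5 in vehicle were -0.93, 1.31 and 2.68, all still past the test. How far these cell types contribute to the members' levels was not tested.

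Scaling also bears on the strain results. With library totals in place of TMM, the median of all genes moved by -0.15 in vehicle and by -0.13 in ACSS2i, and the share of calls that were higher in C57BI6 went from 57.3% to 40.9% and from 57.3% to 44.7%. The 5 genes called in both comparisons kept their signs, Hdac1 no longer past the test in vehicle, and with library totals 7 of 30 genes passed in vehicle (3 higher, 4 lower) and 17 of 30 in ACSS2i (7 higher, 10 lower).

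Spread between libraries also sets how much can be said. The median coefficient of variation of the 30 genes was 14.6% for NGS vehicle and 17.8% for NGS ACSS2i, where counting alone gives 9.55% and 9.23%. For C57BI6 it was 10.9% in vehicle and 10.2% in ACSS2i, where counting gives 4.03% and 3.74%. The values for NGS hold more counting error, and how far the groups differ beyond it was not tested. The steadiest gene was Hdac2 in NGS vehicle (2.37%), Crebbp in NGS ACSS2i and C57BI6 vehicle (5.72% and 5.07%) and Sirt7 in C57BI6 ACSS2i (3.38%), and the least steady was Sirt4 in 3 groups and Hdac11 in C57BI6 ACSS2i.

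The partners of these enzymes were followed as lists. Of 42 subunits of acetyltransferase complexes and 37 subunits of HDAC corepressor complexes, none passed the edgeR test for the inhibitor in C57BI6 tumours. At an unadjusted p under 0.05 there were 6 of 42 and 2 of 37, against 7.96% of all genes, and DESeq2 and limma voom each called 0. In NGS tumours 1 of 42 rose, Msl1, the scaffold of the MSL complex that holds Kat8, by 0.35 ± 0.09 (adjusted p = 0.0496). Of the corepressor subunits 1 of 37 fell, Mta1, part of NuRD, by -0.87 ± 0.20 (adjusted p = 0.0342), from 78.8 ± 8.86 to 42.9 ± 14.7 CPM (SD, n = 3). Both counts (2.38% and 2.7%) are near the background of 2.69%. They went to 0 with limma voom and in the NGS libraries alone, and to 1 and 4 without the keratinocyte-rich libraries. With DESeq2 they were 6 and 9, where 1574 of all 17294 genes were called. With library totals both were 2. Without NGS ACSS2i 1 they were 3 and 8. The first was 1 without NGS ACSS2i 3 and 0 without any other library, and the second was 1 without NGS vehicle 2, NGS ACSS2i 3 or C57BI6 vehicle 2 or 4, and 0 without any other.

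Among 32 other readers with a bromodomain or YEATS domain, 1 rose in C57BI6 tumours (3.12%, against 0.312% of all genes called). In NGS tumours 4 of 32 were called (12.5%, against 2.69%). The C57BI6 call was Sp100, a component of PML nuclear bodies and an interferon-responsive gene. Sp100 went from 26.1 ± 3.49 to 53 ± 7.78 CPM (SD, n = 4), a log2 fold change of 1.02 ± 0.17 (adjusted p = 0.0212). In NGS tumours it also rose, from 33.8 ± 3.5 to 70.6 ± 22.2 CPM (SD, n = 3), by 1.06 ± 0.21 (adjusted p = 0.0182). The difference of these effects was -0.04 ± 0.27 (adjusted p = 1). The NGS list had 3 more calls: Mllt3, a YEATS reader, fell by 0.55, Pbrm1, a subunit of the PBAF remodeller, fell by 0.44, and Baz2a rose by 0.52 (adjusted p = 0.02, 0.0304 and 0.044). The C57BI6 call of Sp100 was lost without the muscle-rich libraries and without any 1 of C57BI6 vehicle 2, 3 or 4 or C57BI6 ACSS2i 2 or 3. The NGS list had 8 calls without NGS ACSS2i 1 and 0 without any 1 of NGS vehicle 1 or 2 or NGS ACSS2i 2 or 3. Over all genes, 118 to 1743 were called with each library left out. The list had 8 calls with DESeq2, which called 1574 of all 17294 genes, and 0 with limma voom and in the NGS libraries alone.

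The cofactor list held 13 genes for acetyl-CoA and NAD supply, of which 12 were tested. None passed the edgeR test for the inhibitor in C57BI6 tumours (0 at an unadjusted p under 0.05, against 7.96% of all genes, 0 by DESeq2 and limma voom). In NGS tumours none passed it either (2 of 12 unadjusted, against 22.1% of all genes, 1 by DESeq2 and 0 by limma voom). Acss2 RNA, from the gene of the inhibited enzyme, was at 3.21 ± 1.43 CPM in vehicle and 3.5 ± 1.76 CPM with ACSS2i in NGS tumours (SD, n = 3), and at 2.63 ± 0.334 and 2.82 ± 0.705 CPM in C57BI6 tumours (SD, n = 4). Its log2 fold change was 0.10 in each strain, with adjusted p of 0.936 and 0.994.

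Between the strains the lists were counted beside all genes, with no test of a list against them. In vehicle 7 of 42 acetyltransferase complex subunits (16.7%), 13 of 37 corepressor subunits (35.1%), 8 of 32 other readers (25%) and 5 of 12 cofactor genes (41.7%) passed, against 32.8% of all genes. In ACSS2i the counts were 16, 18, 11 and 5, or 38.1%, 48.6%, 34.4% and 41.7%, against 40.3%. The smallest p among the acetyltransferase partners was that of Brpf1 in vehicle (0.75, adjusted p = 0.000592), the scaffold of Kat6a and Kat6b, and of Ing5 in ACSS2i (-1.24, adjusted p = 1.27e-05), a subunit of Kat6 and Kat7 complexes. Among the corepressor subunits it was Arid4b, of the SIN3 complex, in both (0.95, adjusted p = 6.74e-06, and 0.89, adjusted p = 1.41e-05). Among the readers it was Brwd1, lower in C57BI6 in both (-0.93, adjusted p = 1.41e-06, and -1.11, adjusted p = 2.17e-07). Of the cofactor genes Nampt, which makes the precursor of NAD, was higher in both (0.51, adjusted p = 0.0228, and 0.95, adjusted p = 0.000346), and Acly, the other main source of acetyl-CoA outside mitochondria, was lower (-0.42, adjusted p = 0.0154, and -0.44, adjusted p = 0.0107). Nmrk1 had the largest difference of that list (3.23 in vehicle), but like Sirt5 it shares sequence at its 3′ end with other genes and is uncertain.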

How the data were processed

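Bulk tumour RNA was made into 14 libraries with the QuantSeq 3′ kit of Lexogen, per the labels' protocols. The deposited table holds whole-number counts per Ensembl gene, used as deposited; RSEM 1.2.3, DESeq2 and the build mm10 are named, without roles, in the submitters' processing notes. The sources used here do not give the aligner, annotation, strand setting or any rounding of estimates. Symbols and positions came from GENCODE M21 of mm10, which matched 51596 of 51789 genes, and 193 had no symbol.

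Libraries were grouped by labelled strain and treatment. Genes were filtered with filterByExpr of edgeR 4.0.16 (17294 kept), scaled by TMM and tested with its quasi-likelihood test in 1 model of the 4 groups (R 4.3.3; common biological coefficient of variation 0.236). Tests were two-sided, with Benjamini-Hochberg adjustment over all genes tested and a threshold of 0.05. Compared were ACSS2i and vehicle within each strain, the difference of those effects, and C57BI6 against NGS under each treatment; they share groups, and so libraries. Log2 fold changes carry an SE worked out from the test, as the size of the change divided by the square root of its F. The 95% intervals are 1.96 SE either way. That factor is of a normal distribution, so they are approximate and somewhat narrower than the test itself would give. Levels are CPM, with the SD across libraries where a mean is given.

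Alternatives were DESeq2 1.42.0 size factors and test, limma 3.58.1 voom with quality weights, library totals, other filters, a replicate block, each library left out, libraries rich in muscle RNA left out, each strain or treatment alone, and thinning of C57BI6 counts. Leaving out the 2 libraries with most keratinocyte RNA was chosen after seeing the data. Replicate numbers are not stated to pair libraries. Deviations of same-numbered vehicle and ACSS2i libraries from their group means correlated at 0.125, 0.025 and 0.064 in NGS and at -0.043, -0.103, -0.116 and 0.192 in C57BI6, so no block was used in the main test. The chi-square per degree of freedom between libraries of the same group was 6.62 to 25.4, so no library was counted as a repeat. Where a group has 0 counts, up to 3 counts are allowed for: 0.218 CPM (vehicle) or 0.27 CPM (ACSS2i) in NGS and 0.043 or 0.0395 CPM in C57BI6. No molecular identifiers are described, so this covers counting error only.

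Shared 3′ sequence was searched with BLAST 2.17.0 in the last 500 bases of coding transcripts (at least 95% identity over 100 bases). Promoter windows came from the RefSeq table of GRCm38.p6. Values in every library are given for genes of the 30 past the test in a comparison and for the smallest p of each class in the inhibitor comparisons; lists name their smallest p among calls, and other genes named were chosen after their values were seen. The main test was also run on counts simulated from its own fitted spread. Such a run checks the code and cannot decide between edgeR, DESeq2 and limma voom. The 30 genes and the lists were chosen with earlier results of these data known.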

Additional observations from a re-analysis of the deposited data

Results flagged for a closer look

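A library was picked out where its gap to the nearest other library made up most of its group's range, past the 95% critical value of Dixon's ratio for 4 samples. This was looked at for 60 groups of 4, the 30 genes in each C57BI6 group, and 8 passed; chance picks out about 1 in 20. C57BI6 ACSS2i 3 was high for Crebbp (204 CPM, the others 187 to 188) and for Sirt3 (8.91 CPM, the others 6.99 to 7.3). C57BI6 ACSS2i 1 was low for Kat6a (63.8 CPM, the others 77.7 to 78.8). C57BI6 ACSS2i 2 was low for Hdac3 (12.4 CPM, the others 16.5 to 17.3) and for Hdac7 (152 CPM, the others 180 to 185). C57BI6 ACSS2i 4 was high for Hdac8 (11.9 CPM, the others 8.34 to 8.91) and low for Hdac10 (4.46 CPM, the others 5.77 to 5.91). In vehicle, C57BI6 vehicle 4 was high for Kat8 (11.9 CPM, the others 9.96 to 10.2). All of these came from the C57BI6 groups because NGS groups have 3 libraries and were not examined. C57BI6 ACSS2i 3 was also the C57BI6 library with most muscle RNA (3087 CPM of muscle markers).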

How the results depend on the processing

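Of the 30 genes, 0 passed in C57BI6 ACSS2i against vehicle under all 24 alternatives. In NGS 5 passed with the DESeq2 test, 1 without the keratinocyte-rich libraries, and 0 to 4 with each library left out. The interaction had 1 with DESeq2. Between the strains in vehicle, 7 became 3 without the muscle-rich libraries, which leaves 1 NGS vehicle library assumed to vary like the others, and 5 to 10 with each library left out; in ACSS2i the range was 10 to 17. No gene that passed turned its direction. The change of Brd3 in C57BI6 (-0.01) did turn: 0.00069 with DESeq2 size factors, 0.000599 with DESeq2, 0.0508 with library totals, 0.0203 with limma voom, 0.0029 without a filter, 0.0101 with at least 10 counts in 3 libraries, 0.0041 without the muscle-rich libraries, 0.013 in C57BI6 alone, and -0.0602 to 0.0354 with each library left out. The cause was not tested. The replicate block gave 0 of 30 in both inhibitor comparisons and in the interaction, and 5 and 12 between the strains, where the vehicle calls of Kat6a (adjusted p = 0.0981) and Hdac9 (adjusted p = 0.0566) were lost; it also ended the C57BI6 call of Sp100, took the calls among other readers in NGS from 4 to 1, and moved all genes called from 54 to 9 (C57BI6) and from 466 to 254 (NGS). Over all genes the NGS effect had 9 calls in NGS libraries alone, 27 with limma voom and 1574 with DESeq2. By edgeR it had 118 to 1743 with each library left out, so its count depends on the method and on single libraries. In C57BI6 it ranged from 9 to 429. The NGS depth limits low genes: Sirt4 was at or near the floor there, and it could not be tested after thinning in ACSS2i.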
